A study of Mus musculus with 2 samples.

Results

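The genes described here are the interferon-inducible gene families of the mouse microglial cell line BV2, measured on 1 Affymetrix Mouse Gene 1.0 ST array of cells in DMEM/F12 and 1 array of cells in DMEM. Members were picked by their gene symbols, with earlier results of these data known, and the rule itself uses no measured value. They are the interferon genes Ifna and Ifnb1, the receptor genes Ifnar and Ifngr, the transcription factor genes Irf1, Irf2, Irf3, Irf4, Irf5, Irf7, Irf9 and Stat2, and the families named Ifi, Ifit, Ifitm, Oas, Gbp, Irgm, Iigp, Mx, Trim12, Trim30, Phf11 and Slfn, with the single effectors Isg20, Isg20l2, Rsad2, Usp18, Ddx58, Bst2 and Zbp1. A gene entered when a transcript cluster, the group of probes that measures a gene or a part of it, carried its symbol and no other. This gave 98 genes on 102 clusters, of 19938 genes on 21789 such clusters and 28944 clusters in all.

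BV2 is an immortalized line of mouse microglia, the macrophages of the brain. Cells were plated in DMEM/F12, a richer medium than DMEM, and on the next day the medium was changed to DMEM/F12 or to DMEM for 1 d, with fetal bovine serum in both media. The DMEM/F12 cells therefore stayed in their plating medium, whereas the DMEM cells were moved out of it. The study's methods name no interferon added to either culture.

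Interferons are secreted cytokines that cells make on sensing viral nucleic acid or other danger. Type I interferons (Ifna, Ifnb1) bind a receptor built from Ifnar1 and Ifnar2, and interferon gamma binds one built from Ifngr1 and Ifngr2. Both act through JAK kinases and STAT proteins, and STAT2 with IRF9 belongs to the complex that binds the interferon-stimulated response element (ISRE) in front of target genes. The target genes encode sensors of foreign RNA and DNA, enzymes and GTPases that block viruses and intracellular microbes, and feedback inhibitors. Microglia carry both receptors and are known to raise these genes in infection, injury and aging of the brain.

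Levels are the log2 expression values that the authors deposited, and each difference is DMEM/F12 minus DMEM. Each medium has 1 array, so there is no replicate error, no test was possible, and every difference describes these 2 arrays only. A difference on an array also cannot tell fewer expressing cells from less RNA per cell. Background was set from 1248 clusters of taste, vomeronasal and olfactory receptor genes as their 95th percentile, at 4.17 in DMEM/F12 and 4.15 in DMEM. The median over all clusters was 4.77 in DMEM/F12 and 4.75 in DMEM. Of 13 measured marker genes of microglia and macrophages, 11 were above background on both arrays, with differences from -0.66 to 0.40 over the list and a median of 0.00. Tmem119 was the lowest, with 6.05 in DMEM/F12 and 6.71 in DMEM, and Trem2 the highest, with 9.63 in DMEM/F12 and 9.23 in DMEM, and their part in the differences of the family genes was not tested. The markers Aif1 and P2ry12 were not above background on either array. Of 22 measured markers of other cell types 10 passed background on 1 array or both. Among these were all 3 fibroblast markers (Col1a1, Col1a2 and Pdgfra), Mbp and Mog of oligodendrocytes, and Rbfox3, Slc1a2, Cldn5 and Cd3e. Whether BV2 cells express them was not tested, so a value above background alone does not show expression. The remaining 1 is the family member Bst2, a marker of plasmacytoid dendritic cells. Their other marker Siglech was below background (3.56 in DMEM/F12 and 3.71 in DMEM).

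Some family genes differed by 1.5-fold or more in each direction, while the families as a whole lay near 0. Every gene at least 1.5-fold lower had a DMEM/F12 value under background. Of those at least 1.5-fold higher, only Oas1a and Slfn2 were above background on both arrays. Of the 98 genes, 54 had a higher value in DMEM/F12, 37 a lower value and 7 the same value, with a median log2 difference of 0.02. With each array centred on its median, 48 were higher and 47 lower. Over all 19938 genes the median was 0.00, and 9405 were higher and 9080 lower. Differences of the family genes were more spread out, with an SD of 0.35 between genes, against 0.23 over all genes. Among genes above background on both arrays, the SD was 0.24 for 44 family genes and 0.21 for all 12545 genes.

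Oas1a, Slfn2, Oas1d, Ifi208 and Ifi209 were at least 1.5-fold higher in DMEM/F12, which is 5 of 98 family genes or 5.10%, where the share over all genes was 0.928%. Phf11a, Ifi203, Trim12a, Ifna2 and Ifna12 were at least 1.5-fold lower, again 5.10%, against 0.727% of all genes. None was 2-fold higher, where 0.0602% of all genes were. Phf11a, Ifi203 and Trim12a were at least 2-fold lower, where 0.0251% of all genes were, which is 5 genes.

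Signal over background separates these 10 genes. Only Oas1a and Slfn2 were above background on both arrays, which is 2 of 44 such family genes higher and 0 lower, where 0.622% of all such genes were higher and 0.542% lower. Phf11a, Ifi203 and Ifna2 were above it in DMEM only, so that their DMEM/F12 level is a bound and not a measured value. The remaining 5, Oas1d, Ifi208, Ifi209, Trim12a and Ifna12, were above background on neither array. Of all genes above background on 1 array or both, 0.786% were at least 1.5-fold higher and 0.635% lower, and of all genes above it on neither array 1.21% were higher and 0.909% lower. With all values below 4.17 raised to 4.17 on both arrays, Oas1a and Slfn2 were still at least 1.5-fold higher and no family gene was 1.5-fold lower, where 0.401% of all genes treated the same way were higher and 0.351% lower. Phf11a then differed by -0.53, Ifi203 by -0.08 and Ifna2 by -0.03.

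**Figure D1:**
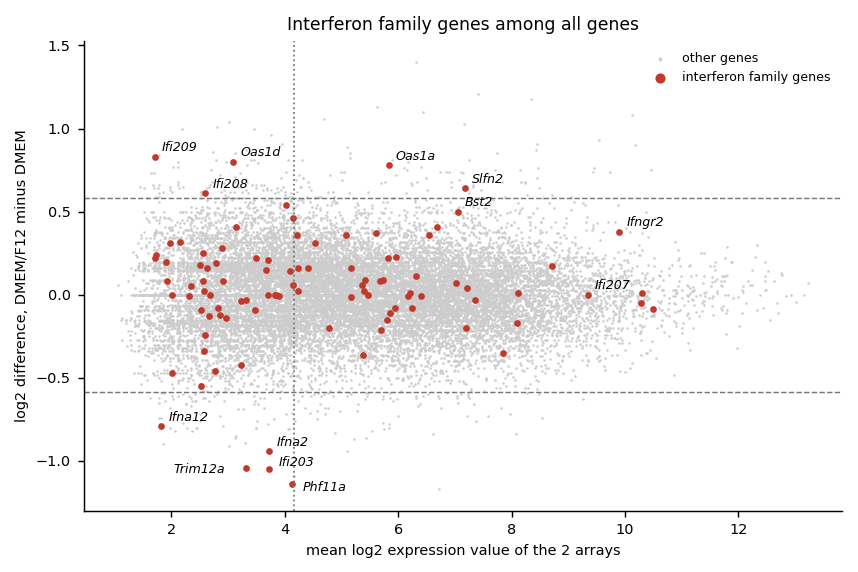
The y axis gives the log2 difference of a gene, DMEM/F12 minus DMEM, and the x axis its mean log2 expression value over both arrays. Red dots are the 98 interferon family genes and gray dots the other genes, dashed lines mark 1.5-fold and the dotted line marks background; Oas1a and Slfn2 lie above the upper dashed line to the right of background, and the 5 family genes under the lower one lie to its left.

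The promoters of these genes show what the families share in sequence. RefSeq windows (GRCm38.p6) from 250 bases before to 50 bases after the start were held for 80 of the 98 genes, matched by gene number, and 10 of them have several windows. Each was searched on both strands for the core of the ISRE, written GAAA, any 2 bases, GAAA. The core was found in at least 1 window of 43 of the 80 family genes (53.8%), against 1079 of 27025 genes with a window (3.99%). Windows of neighbouring genes can overlap, so the same bases can count for more than 1 gene, as for Ifit1 and Ifit1bl2. In 39 of the 43 it lay wholly before the start. The core of the gamma-activated site (GAS), the element of interferon gamma targets written TTC, any 3 bases, GAA, was found in 20 of 80 family genes (25%), against 9.55% of all genes. A match is a description of the letters and not a site shown to be bound, and the arrays do not measure binding.

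The stretches that follow are from some family genes, picked by hand, that hold the core wholly before the start. With the ISRE core in capitals, they read 5′ to 3′ on the strand of the gene. They lie at chr5:120907526-120907575 (minus strand) for Oas1a, chr8:71537557-71537632 (minus) for Bst2, chr12:26456533-26456602 (minus) for Rsad2, chr19:34640755-34640843 (plus) for Ifit1, chr1:173673577-173673646 (plus) for Ifi208, chr1:173741811-173741880 (minus) for Ifi207, chr1:173942493-173942557 (minus) for Ifi203 and chr14:59297523-59297581 (minus) for Phf11a.
Oas1a: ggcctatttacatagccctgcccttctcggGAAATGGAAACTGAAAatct
Bst2: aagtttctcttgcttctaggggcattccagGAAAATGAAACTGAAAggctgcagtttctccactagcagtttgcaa
Rsad2: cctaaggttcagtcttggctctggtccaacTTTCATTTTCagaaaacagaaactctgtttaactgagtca
Ifit1: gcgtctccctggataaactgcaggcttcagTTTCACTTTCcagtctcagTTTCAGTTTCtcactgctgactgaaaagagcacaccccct
Ifi208: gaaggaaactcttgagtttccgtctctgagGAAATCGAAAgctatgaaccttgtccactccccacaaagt
Ifi207: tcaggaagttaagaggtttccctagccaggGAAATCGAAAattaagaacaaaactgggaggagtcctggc
Ifi203: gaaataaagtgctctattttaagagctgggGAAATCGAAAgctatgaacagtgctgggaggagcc
Phf11a: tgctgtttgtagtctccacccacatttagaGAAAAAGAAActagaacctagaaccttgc
In Oas1a and Bst2 a pair of cores overlaps and makes 1 longer run, and in Rsad2 and Ifit1 the core reads on the opposite strand. The same 10 letters, GAAATCGAAA, stand before the start of 6 Ifi200 genes (Ifi203, Ifi206, Ifi207, Ifi208, Ifi213 and Ifi214), and these 6 differed between the arrays from -1.05 to 0.61.

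Genes with and without the core had the same median difference. The 43 genes with the core had a median of 0.02, with 22 higher, 18 lower and 3 equal, and the 37 genes without it also had 0.02, with 21 higher, 14 lower and 2 equal. All 5 genes at least 1.5-fold lower held the core, in Trim12a after the start, where 53.8% of the family genes with a window held it. The DMEM/F12 values of these 5 were all under background, and none stayed 1.5-fold lower with values raised to background. Whether the core bears on these differences was not tested. Of the 4 genes at least 1.5-fold higher that had a window, Oas1a and Ifi208 held it, and Slfn2 and Ifi209 did not.

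**Figure D2:**
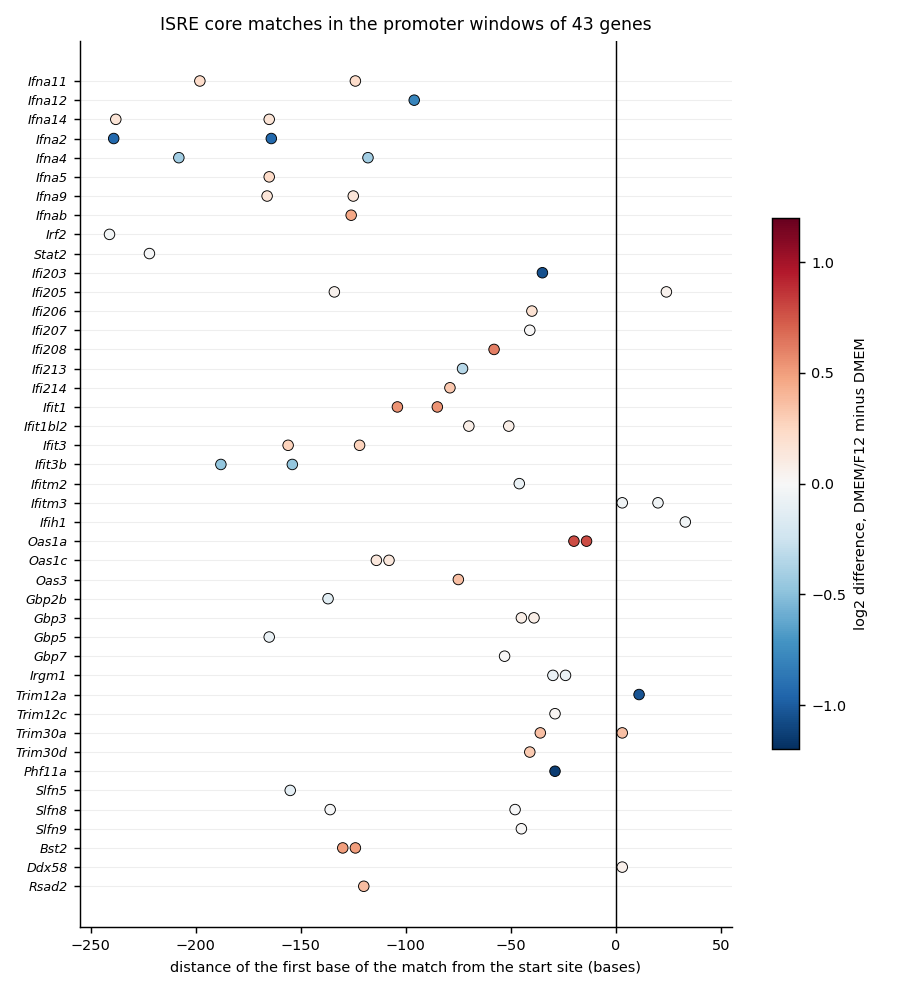
Distance in bases (x axis, 0 is the start site) of the first base of each ISRE core match in the promoter windows of the 43 family genes that hold it (y axis, ordered by family). Each circle is 1 match, colored by the log2 difference of its gene (DMEM/F12 minus DMEM); blue and red circles occur at similar distances, as in Phf11a at -29 and Oas1a at -20 and -14. Genes with several windows, and neighbouring genes whose windows overlap, can show the same match more than once.

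Interferon genes were mostly below background. Ifnb1, the interferon that cells make first on infection, had a log2 value of 2.70 in DMEM/F12 and 2.54 in DMEM, both below background. Ifna5 was the single one of the 11 interferon genes above background on both arrays, with 6.07 in DMEM/F12 and 5.84 in DMEM. Ifnab, Ifna14 and Ifna16 passed background in DMEM/F12 only, and their differences were 0.46, 0.16 and 0.06. Their values were 4.38, 4.31 and 4.18 in DMEM/F12 and 3.92, 4.15 and 4.12 in DMEM. Ifna14 and Ifna16 thus lay close to background on both arrays. Ifna2 passed it in DMEM only, with 3.26 in DMEM/F12 and 4.20 in DMEM. The family split into 7 with a higher and 4 with a lower value, and 6 of the 11 were above background on neither array. Interferon alpha genes are near-identical copies, and 3 further clusters carry 6 or more of their symbols each. These shared clusters differed by 0.09, -0.09 and -0.22, with no direction in common. All 3 also carry the symbol Ifna5, with 3.97, 2.89 and 4.10 in DMEM/F12 and 3.88, 2.98 and 4.32 in DMEM. Only the last passed background, in DMEM only, so the level of the Ifna5 cluster was not seen in the clusters it shares.

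Interferon receptors were above background in both media. Ifngr2, the signaling chain of the interferon gamma receptor, had 10.09 in DMEM/F12 and 9.71 in DMEM, a difference of 0.38 or 1.30-fold. Ifngr1, the chain that binds the ligand, had 8.11 in DMEM/F12 and 8.10 in DMEM. Thus the 2 chains of this receptor differed unequally on these arrays. Ifnar2 had 8.79 in DMEM/F12 and 8.62 in DMEM, and Ifnar1 had 7.23 in DMEM/F12 and 7.19 in DMEM. As deposited, the receptor genes were higher in DMEM/F12 by 0.01 to 0.38, but with each array centred on its median Ifngr1 differed by -0.01 and 3 of 4 were higher.

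Transcription factors of the pathway were all above background and split in direction. Irf7, the factor that amplifies type I interferon production, had 5.26 in DMEM/F12 and 4.90 in DMEM, a difference of 0.36. Irf9, the DNA-binding partner of STAT2, had 5.93 in DMEM/F12 and 5.71 in DMEM. Stat2 itself had 6.16 in DMEM/F12 and 6.17 in DMEM. Irf7 and Irf9 were the only 2 of the 8 factors with a higher value in DMEM/F12, although Stat2 differed by 0.01 after quantile normalization.
On the lower side, Irf4, which directs alternative activation of macrophages, had 5.20 in DMEM/F12 and 5.56 in DMEM, a difference of -0.36. Irf5, which drives inflammatory cytokines, had 8.01 in DMEM/F12 and 8.18 in DMEM. Irf3, the factor that starts Ifnb1 transcription, and Irf2, an antagonist of Irf1, differed by -0.01 and -0.03. Irf1 has 2 clusters that differed in sign, by 0.11 and -0.14, and its mean difference was -0.02.

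The oligoadenylate synthetases sense dsRNA and switch on the nuclease RNase L. Oas1a had a log2 value of 6.22 in DMEM/F12 and 5.44 in DMEM, a difference of 0.78 or 1.72-fold. Oas3 had 6.73 in DMEM/F12 and 6.37 in DMEM, a difference of 0.36. In contrast, Oas2 differed by 0.09, Oasl1, which restrains IRF7 translation in mice, by 0.07, Oas1b, the flavivirus resistance gene, by 0.02 and Oasl2 by -0.08. Those 6 were the Oas genes above background, and 5 of them were higher. Of the 5 Oas genes below background on both arrays, Oas1d was highest in difference (0.80) and Oas1e lowest (-0.55).
Counted together, the 11 Oas genes split into 9 higher and 2 lower around a median difference of 0.09. A further cluster carries the symbols of both Oas1a and its close copy Oas1g, and it ran the other way, with 6.39 in DMEM/F12 and 6.69 in DMEM, a difference of -0.30. Which of the copies each cluster measures was not tested, so the value of Oas1a is uncertain to that extent.

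The DNA-binding Ifi200 (PYHIN) proteins include sensors of cytosolic and nuclear DNA, and their genes lie together on chromosome 1. Ifi207 was the single one of 9 above background on both arrays and had 9.34 in each medium. Ifi203 had 3.20 in DMEM/F12 and 4.25 in DMEM, a difference of -1.05, and only the DMEM value was above background. Ifi209 had 2.12 in DMEM/F12 and 1.29 in DMEM, and Ifi208 had 2.90 in DMEM/F12 and 2.29 in DMEM, all far below background. Differences of the other 5 ranged from -0.34 to 0.32, and all 5 were below background. The cluster shared by Ifi204 and Ifi211 differed by -0.09.

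Phf11 genes, which encode PHD finger proteins and lie on chromosome 14, were lower in DMEM/F12 in all 3 members. Phf11a had 3.56 in DMEM/F12 and 4.70 in DMEM, a difference of -1.14, the lowest of all 98 genes. As its DMEM/F12 value lay under background, the measured part of this gap, counted down to background, was -0.53, which is under 1.5-fold. Phf11d, the single one above background on both arrays, had 5.59 in DMEM/F12 and 5.80 in DMEM. Phf11c was below background on both arrays and differed by -0.46, which is also the family median and the lowest median of the 14 families.

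Trim12 and Trim30 genes, which lie on mouse chromosome 7, are relatives of the human restriction factor gene TRIM5. Trim12a had 2.79 in DMEM/F12 and 3.83 in DMEM, a difference of -1.04 with both values below background. Trim30a, a negative regulator of Toll-like receptor signaling, had 4.39 in DMEM/F12 and 4.03 in DMEM and passed background in DMEM/F12 only. The other 3 members, 1 of them the pseudogene Trim30e-ps1, differed by 0.02 to 0.31 below background. Clusters that carry Trim12c with Trim5, in 1 case with Trim12a as well, differed by 0.30 and 0.28, also below background, so the lower value of Trim12a was not seen in the cluster it shares.

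**Figure D3:**
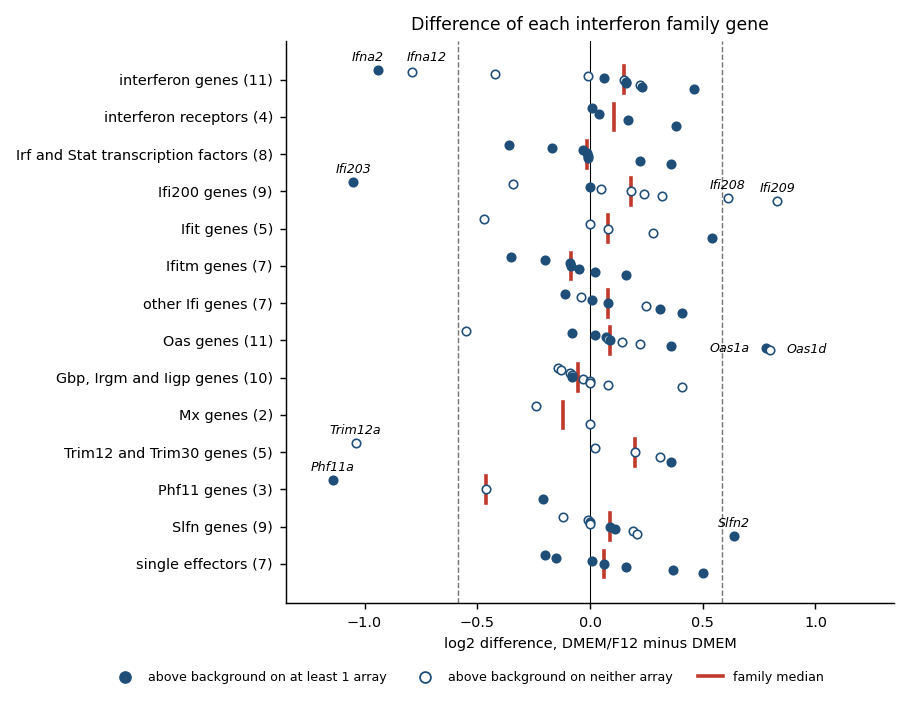
The 98 genes are drawn by family (y axis, number of genes in parentheses) at their log2 difference (x axis, DMEM/F12 minus DMEM). Filled circles passed background on 1 array or both and open circles on neither, red bars are family medians and dashed lines mark 1.5-fold; the Phf11 median lies farthest to the left at -0.46 and the medians of the other families lie between -0.12 and 0.20.

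Schlafens (Slfn) restrain proliferation and viral protein synthesis, and Slfn2 keeps T cells and monocytes quiescent. Slfn2 had 7.50 in DMEM/F12 and 6.86 in DMEM, a difference of 0.64 or 1.56-fold. Its neighbours on chromosome 11 did not share this size: Slfn3 differed by 0.11, the pseudogene Slfn10-ps by 0.09 and Slfn9 by 0.00, all above background. The other 5 Slfn members, among them the antisense gene Slfn5os, were below background and differed by -0.12 to 0.21.

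Among the single effectors, Bst2, the tether that holds budding virus on the cell, had 7.30 in DMEM/F12 and 6.80 in DMEM, a difference of 0.50 or 1.41-fold. Rsad2 (viperin), which makes a chain-terminating nucleotide against viruses, had 5.79 in DMEM/F12 and 5.42 in DMEM. Zbp1, a sensor of Z-form nucleic acid, had 4.49 in DMEM/F12 and 4.33 in DMEM. All 3 were above background in both media and higher in DMEM/F12, but below 1.5-fold.
Ddx58 (RIG-I), a sensor of viral RNA, differed by 0.06, and Usp18, the protease that removes ISG15 and damps receptor signaling, by 0.01. Isg20, an exonuclease, differed by -0.15, and Isg20l2, a ribosome biogenesis factor that shares the name, by -0.20. Isg15 itself is measured only by a cluster it shares with another symbol, at 3.60 in DMEM/F12 and 3.34 in DMEM, both below background.

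Ifitm3, Ifitm2 and Ifi30 had close values in both media. Ifitm3, which blocks entry of viruses from endosomes, had 10.25 in DMEM/F12 and 10.30 in DMEM. Ifitm2 averaged 10.45 in DMEM/F12 and 10.53 in DMEM over 3 clusters. Ifi30, the lysosomal thiol reductase of antigen processing, had 10.30 in DMEM/F12 and 10.29 in DMEM. These 3 genes differed by 0.08 or less in size, and the 3 Ifitm2 clusters by 0.02, -0.09 and -0.18.
Ifitm6, a relative expressed in myeloid cells, had 7.67 in DMEM/F12 and 8.02 in DMEM, a difference of -0.35. Ifitm7 differed by -0.20 and Ifitm1 by -0.09, while Ifitm10 differed by 0.16 and Ifitm5, a bone gene, by 0.02. The Ifitm1 value averages 2 clusters that differed in sign, by -0.27 and 0.09, the second below background on both arrays. In this family 2 of 7 were higher and 5 lower, and the median was -0.08. Among the other Ifi genes, Ifi27, a small membrane protein gene, had 6.89 in DMEM/F12 and 6.48 in DMEM, a difference of 0.41, and Ifi27l2a had 4.69 in DMEM/F12 and 4.38 in DMEM. Their relative Ifi27l2b differed by 0.08, and Ifi35 by -0.11. Ifih1 (MDA5), a dsRNA sensor, and Ifi44l were below background in both media.

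**Figure D4:**
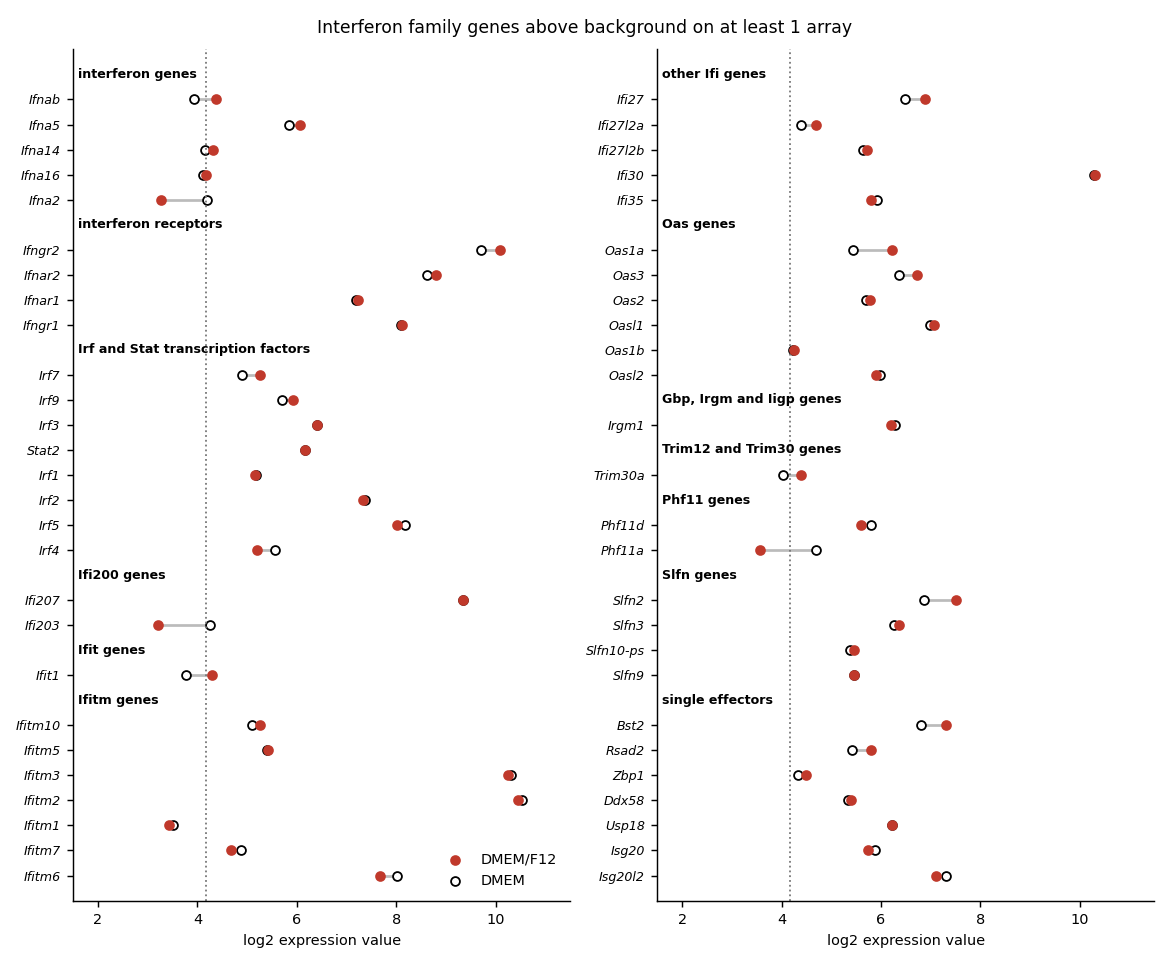
Log2 expression value (x axis) of the 53 family genes above background on at least 1 array (y axis, by family), in DMEM/F12 (red circles) and DMEM (open circles), joined by gray lines; the dotted line marks background in DMEM/F12. Oas1a and Slfn2 have the widest gaps with both circles right of background, Phf11a, Ifi203 and Ifna2 have a red circle left of it, and Ifitm1 lies left of it because only 1 of its 2 clusters was above background.

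Several classical interferon targets gave no signal above background in either medium. Neither Mx gene, which encode dynamin-like antiviral GTPases, was above it, with 2.47 in DMEM/F12 and 2.71 in DMEM for Mx1 and 2.68 in each medium for Mx2. The same held for Iigp1, at 2.02 in each medium, and for all 8 Gbp genes, GTPases that attack the vacuoles of microbes, whose differences ran from -0.14 to 0.41. Irgm1, which guides autophagy of microbes, was the single one of the 10 genes of that group above background, with 6.20 in DMEM/F12 and 6.28 in DMEM. Of the Ifit genes, whose proteins bind foreign RNA, only Ifit1 passed background, and in DMEM/F12 only, with 4.30 in DMEM/F12 and 3.76 in DMEM. Ifit2 had 3.70 in each medium, and Ifit3 had 3.04 in DMEM/F12 and 2.76 in DMEM. In all, 44 of 98 family genes (Oas1a, Bst2 and Ifi207 among them) were above background on both arrays, 5 in DMEM/F12 only, 4 in DMEM only and 45 on neither. Of all 19938 genes, 12545 were above it on both arrays, 362 in DMEM/F12 only, 318 in DMEM only and 6713 on neither. Thus 54.1% of the family genes passed background on 1 array or both, against 66.3% of all genes.

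Genes of the interferon pathway outside these families were taken from a list of 67 symbols, of which 54 had a cluster of their own. Of these 31 were higher in DMEM/F12, 17 lower and 6 equal, with a median of 0.04, and 0 of 54 reached 1.5-fold in either direction, which with 54 genes is near the shares of all genes, 0.928% higher and 0.727% lower. The largest differences above background were those of Mov10, an antiviral RNA helicase (8.93 in DMEM/F12 and 8.38 in DMEM), Dtx3l, a ubiquitin ligase (6.94 in DMEM/F12 and 6.40 in DMEM), the kinase gene Ikbke (6.77 in DMEM/F12 and 6.25 in DMEM) and Lgals3bp (6.83 in DMEM/F12 and 6.33 in DMEM). Other targets of the same pathway ran the other way. Dhx58 (LGP2), named here after its value was seen, had 4.84 in DMEM/F12 and 5.26 in DMEM, and the dsRNA-activated kinase gene Eif2ak2 (PKR) had 5.58 in DMEM/F12 and 5.86 in DMEM. The kinases Jak1, Tyk2 and Jak2, which sit on the receptors, differed by 0.13, 0.19 and 0.05.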

How the data were processed

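BV2 total RNA was hybridized to GeneChip Mouse Gene 1.0 ST arrays, 1 array of DMEM/F12 and 1 of DMEM, grouped by the submitters' labels. The authors deposited log2 values per transcript cluster, and the submitters' processing notes name the Transcriptome Analysis Console and Affymetrix Expression Console. Their versions, the summarization, the normalization and the genome build were not given in the sources used here. Precision is limited by the number of arrays, as array files hold no read depth.

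Values were used without further scaling. A gene took the mean over its clusters with exactly 1 symbol in the platform annotation, and 3 of the 98 family genes have several. All 98 were found by gene number in RefSeq GRCm38.p6, with 0 changed symbols. Members, families, lists and the naming rule were chosen with earlier results of these data known. The rule named members at 1.5-fold, the 2 largest differences above background per family, receptors, Irf and Stat genes, and 6 genes known beforehand; others were added after their values were seen. No significance test was run. Alternatives were median centring, quantile normalization, loess centring (span 0.3), only genes above background, values raised to background, the brightest cluster per gene, and clusters counted in place of genes. Protein sequences were not analysed here. Promoter sequences are from RefSeq GRCm38.p6. The 2-fold counts were tested on simulated arrays with planted changes larger than 2-fold, and the motif search on planted motifs. The simulated noise was smaller than the spread of the measured differences (SD 0.23 over all genes). This test therefore does not show how often noise alone passes 2-fold on the measured arrays. The 1.5-fold counts were not tested in this way. Python 3.11.15, numpy 2.4.6, pandas 2.3.3, statsmodels 0.14.6 and matplotlib 3.10.9 were used.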

Additional observations from a re-analysis of the deposited data

How the results depend on the processing

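No paired analysis was possible because there is only 1 array per medium. Shifts of medians and differences over 0.1 (log2), and of counts over 1.5 times, are given here. Under loess centring, quantile normalization or median centring there were none among the counts, the medians and 37 named differences, and counting clusters in place of genes moved no count. Small differences did change sign under these scalings, and the number of family genes with a higher value was 48 to 57 of 98. Among the counts, the medians and the 37 named differences, the brightest cluster per gene moved only Irf1, to 0.11. Ifitm1 is not among the 37, and its brighter cluster differed by -0.27, against a mean of -0.09. With only genes above background, 2 genes were at least 1.5-fold higher and 3 lower, and the medians were -0.53 for Ifi200 genes (2 genes), 0.54 for Ifit genes (Ifit1 alone), 0.36 for Trim12 and Trim30 genes (Trim30a alone) and -0.68 for Phf11 genes. This filter keeps a gene that is bright on 1 array only, and it left no Mx gene. With values below background raised to it, 2 genes were at least 1.5-fold higher, 0 at least 1.5-fold lower and 0 at least 2-fold lower, the medians of interferon, Ifi200, Mx, and Trim12 and Trim30 genes were 0.00, that of Phf11 genes was -0.21, and 12 of 37 named differences moved toward 0. What the arrays can show is thus limited by signal over background on both arrays in 45 of 98 genes. It is limited on 1 array for the 5 genes above background in DMEM/F12 only and the 4 in DMEM only.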

Other observations

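Of the listed pathway genes outside the families, 44 had a RefSeq promoter window. The ISRE core was found in 6 of the 44 (13.6%), and the GAS core in 6 (13.6%). Of all genes with a window, 3.99% held the ISRE core and 9.55% the GAS core, so the GAS count is near the share of all genes. By family, the ISRE core was found in all 5 Gbp and Irgm genes with a window, all 4 Trim12 and Trim30 genes, 4 of 5 Ifit genes, 7 of 9 Ifi200 genes, 8 of 11 interferon genes, 3 of 7 Oas genes, 3 of 8 Slfn genes, 3 of 5 single effectors, 1 of 3 Phf11 genes, 2 of 7 Ifitm genes, 1 of 4 other Ifi genes, 2 of 8 Irf and Stat genes and 0 of 4 receptor genes. Of the 13 clusters that carry a family symbol together with others, 5 were higher in DMEM/F12, 5 lower and 3 equal, and 2 were above background on at least 1 array.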
